A study of Mus musculus with 2 samples.

Results

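Neurotrophins are secreted growth factors that keep neurons alive and shape their dendrites and synapses. The group examined here holds 6 genes picked by name: the ligand genes Bdnf and Ntf3, the Trk receptor genes Ntrk2 (TrkB) and Ntrk3 (TrkC), the p75 receptor gene Ngfr, and Sort1, which encodes sortilin. Of these 6, 5 had a value among the 19503 genes measured, and 4 lay among the 10524 genes above a floor described below. Ntf3, which encodes the main ligand of TrkC, was not analysed here.

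RNA was measured in 2 samples from pooled cerebella of Tg(Pcp2-L10a-Egfp) mice on postnatal day 7, 1 TRAP sample and 1 unbound sample. In translating ribosome affinity purification (TRAP), antibodies against green fluorescent protein pull down ribosomes that carry a tagged L10a protein, together with the mRNAs on them. The transgene is driven by the Pcp2 promoter, which is active in Purkinje cells, so the TRAP sample is the RNA on tagged ribosomes and the unbound sample is what the beads left behind. Both samples came from mice with the transgene. The unbound sample is not a preparation free of Purkinje cells, and how many animals were pooled is not stated in the labels.

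A single Affymetrix whole-transcript array was run per fraction (2 samples, 1 array each), so there is no replicate, no test was run, and no value carries an error. Differences are TRAP minus unbound on the log2 scale, and a gene was called when the fractions were at least 2-fold apart. Pcp2 itself read 12.98 in TRAP and 11.65 in unbound, a difference of 1.34. Rpl10a, averaged over 4 probe sets that cannot separate the transgene from the endogenous gene, differed by 0.54. The 12 Purkinje cell markers above the floor all had positive differences, 6 of them of 2-fold or more (50%, against 8.11% of all genes). Markers of other cell types were mostly lower in TRAP, with a median difference of -1.68 for granule neuron progenitors (12 of 12 lower), -1.58 for granule neurons (12 of 12) and -1.93 for the oligodendrocyte lineage (11 of 11). It was -1.47 for inhibitory interneurons (5 of 6), -1.59 for microglia (3 of 3) and -1.30 for endothelial and mural cells (5 of 6). All 3 microglia markers passed the floor through the unbound value alone, so their negative sign follows from the floor. The same held for 4 oligodendrocyte lineage, 3 interneuron, 2 endothelial and mural and 1 granule neuron progenitor markers. In bulk fractions such as these, fewer cells of a type and less RNA per cell cannot be told apart.

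BDNF binds TrkB, and the Ntf3 product binds mainly TrkC. Receptor dimerisation starts the Ras-MAP kinase, PI3 kinase and phospholipase C-gamma cascades. The p75 receptor binds every mature neurotrophin, and together with sortilin it binds their uncleaved precursors. In the postnatal rodent cerebellum BDNF is known for its effects on granule cell migration and on Purkinje cell dendrites, and p75 is known from developing Purkinje cells and from proliferating cells of the external granule layer. Ntrk2 and Ntrk3 also give rise to truncated receptors without a kinase domain, and truncated TrkB is abundant in astrocytes.

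Start-site windows were matched in RefSeq for 4 of the 6 members by symbol (build GRCm38.p6; 250 bases before to 50 after a transcript start). The windows of Ngfr and Ntrk2 are shown because these members lay at opposite ends of the differences, and 1 of the 7 windows of Bdnf is shown because it holds an element of a well-studied promoter. All are written 5′ to 3′ on the gene's own strand. Capitals in the first pair mark the GC box letters GGGCGG on either strand, and in the Bdnf window they mark TCACGTCA, the cyclic AMP response element through which CREB is known to act on this activity-dependent promoter in rodents.
Ngfr, chr11:95587649-95587948, minus strand: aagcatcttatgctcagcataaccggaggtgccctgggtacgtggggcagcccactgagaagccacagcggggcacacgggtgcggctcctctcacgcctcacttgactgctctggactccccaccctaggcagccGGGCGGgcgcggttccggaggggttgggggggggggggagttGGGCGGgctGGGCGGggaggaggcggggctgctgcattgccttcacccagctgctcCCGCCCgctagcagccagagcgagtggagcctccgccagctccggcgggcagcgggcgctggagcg
Ntrk2, chr13:58806319-58806618, plus strand: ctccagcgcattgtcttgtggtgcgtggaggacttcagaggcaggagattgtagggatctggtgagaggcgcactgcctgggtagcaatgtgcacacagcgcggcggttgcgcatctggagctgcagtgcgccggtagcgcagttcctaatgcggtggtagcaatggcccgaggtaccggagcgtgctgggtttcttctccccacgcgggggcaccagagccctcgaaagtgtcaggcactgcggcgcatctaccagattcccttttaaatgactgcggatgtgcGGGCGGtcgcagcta
Bdnf, chr2:109692186-109692485, plus strand: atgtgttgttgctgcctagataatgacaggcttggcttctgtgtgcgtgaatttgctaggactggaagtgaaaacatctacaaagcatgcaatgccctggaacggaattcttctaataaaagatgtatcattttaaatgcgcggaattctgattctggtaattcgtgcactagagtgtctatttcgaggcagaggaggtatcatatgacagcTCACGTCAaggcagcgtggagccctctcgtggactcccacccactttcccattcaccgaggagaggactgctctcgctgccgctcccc

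The Ngfr window held 4 matches to GGGCGG and was 71.7% G or C. The Ntrk2 window held 1 match and was 61.3% G or C. On either strand GGGCGG was found in 35.7% of all 32851 windows, so a match is common. TCACGTCA was found in 0.441% of them, and in the Bdnf window it begins 38 bases before the start site. A letter match is a description of the window and was not set against any binding measurement.

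The ligand gene Bdnf read 5.78 in TRAP and 5.68 in unbound. Both values lay below the floor of 7.08, set at the median over every probe set on the 2 arrays. The difference of 0.11 was small, and the table gives no detection call, so the data do not tell whether Bdnf was expressed in either fraction. The annotation assigns 11 RefSeq mRNAs of Bdnf to its single probe set, and the alternative starts of the gene, including the one printed above, could not be separated. Ntf5, the other TrkB ligand gene, read 6.12 in TRAP and 5.52 in unbound, also below the floor on both arrays.

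**Figure D1:**
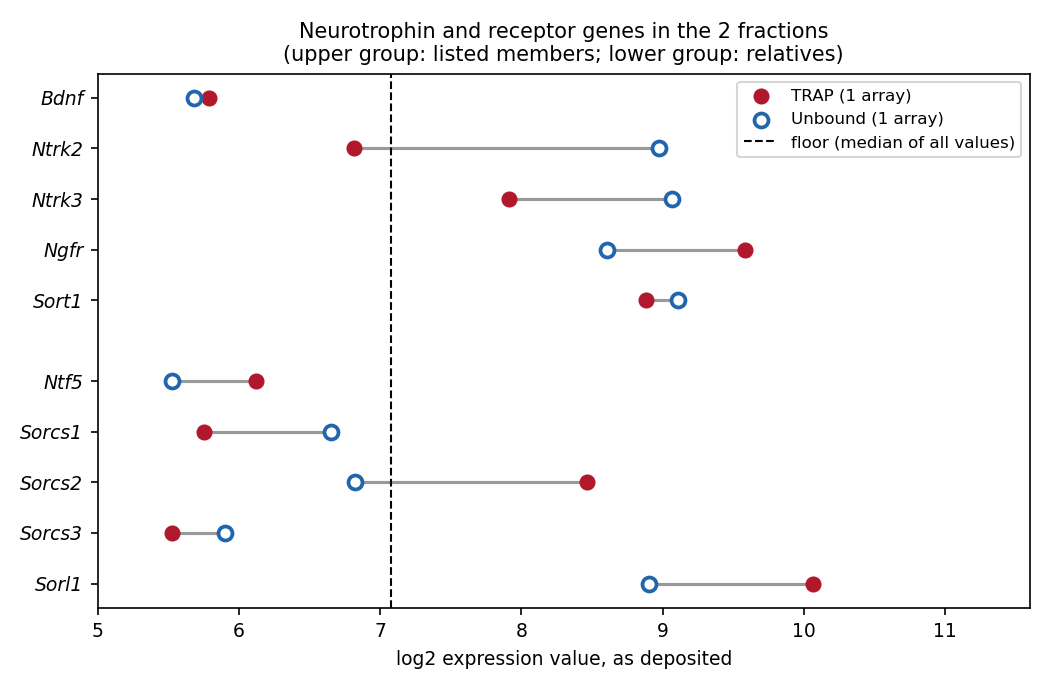
Deposited log2 expression values (x axis) of the 5 measured members (upper group) and 5 related genes (lower group), with 1 point for the TRAP array and 1 for the unbound array. Ngfr, Sorcs2 and Sorl1 sit higher in TRAP, Ntrk2 and Ntrk3 sit higher in unbound, and Bdnf, Ntf5, Sorcs1 and Sorcs3 lie left of the floor of 7.08 on both arrays. Positions of different genes come from different probe sets and are not comparable as amounts.

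Ntrk2, the TrkB receptor gene, had the largest difference among the members. It read 6.81 in TRAP, just below the floor, and 8.97 in unbound, a difference of -2.16 or a value 4.47-fold higher in unbound. Only 338 of the 10524 genes above the floor (3.21%) had a lower difference. Ntrk2 passed the floor through its unbound value alone, so its negative sign follows from the floor. Its TRAP level, its fold and its place among all genes are uncertain. Its 1 probe set stands for 3 RefSeq mRNAs, and the kinase-bearing and truncated receptors could not be told apart.

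Most markers of astrocytes and Bergmann glia moved in the same direction as Ntrk2, as did most markers of the other non-Purkinje cell types given above. Of the 14 astrocyte and Bergmann glia markers above the floor, 12 had negative differences, and the median was -2.07. The 2-fold rule called 11 for unbound (78.6%, against 18.6% of all genes). Of the 14, 5 passed the floor through the unbound value alone, so their negative sign follows from the floor. The mean log2 level of the list was 8.39 in TRAP and 10.30 in unbound, and its summed linear signal was 17000 in TRAP and 29242 in unbound. Gfap and Aqp4, which define astrocytes, had the lowest differences of the list. They read 7.23 and 7.07 in TRAP, near the floor, against 11.14 and 10.60 in unbound. Aldoc and Hopx went the other way, each with a difference of 0.93. Aldoc had the highest TRAP value of the list, 12.97, and so the largest part of the summed TRAP signal. The part of astrocytes and Bergmann glia in the Ntrk2 difference was not tested.

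Ntrk3, the TrkC receptor gene, was also lower in TRAP. It read 7.91 in TRAP and 9.07 in unbound, a difference of -1.15 or a value 2.23-fold higher in unbound. Both values lay above the floor. A lower difference was found for 15.1% of the genes above the floor, so the position of Ntrk3 was much less extreme than that of Ntrk2. The Ntrk3 difference was short of 2-fold when the arrays were scaled in another way, at -0.82 with the array medians subtracted, -0.91 after quantile normalization and -0.94 after removal of a loess trend. Its probe set covers 2 RefSeq mRNAs.

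Ngfr, the p75 receptor gene, was the only measured member above the floor with a higher value in TRAP as deposited. It read 9.58 in TRAP and 8.61 in unbound, a difference of 0.98 or 1.97-fold, which was just short of the 2-fold rule. A higher difference was found for 910 genes, 8.65% of those above the floor. With the array medians subtracted the difference was 1.31, after quantile normalization 1.17 and after loess 1.07, all past 2-fold. Its probe set matches 1 RefSeq mRNA.

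The marker lists of the cell types known for p75 moved in opposite directions. The 12 Purkinje cell markers had a median difference of 1.02, close to that of Ngfr, and a summed linear signal of 63071 in TRAP and 30685 in unbound. The 12 granule neuron progenitor markers all had negative differences, 7 of them of 2-fold or more (58.3%, against 18.6% of all genes). For 1 of the 12 the sign follows from the floor. The summed linear signal of these markers was 6537 in TRAP and 14704 in unbound. Their defining gene Atoh1, which encodes a bHLH transcription factor, read 7.31 in TRAP and 9.30 in unbound. What either cell type contributed to the Ngfr values was not tested.

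Sort1, which encodes the sorting receptor sortilin, had nearly the same value in both fractions. It read 8.88 in TRAP and 9.11 in unbound, a difference of -0.23 that lies near the median of all genes above the floor (-0.13). Its sign was positive, 0.10, with the array medians subtracted.

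By the 2-fold rule, 0 of the 4 members above the floor were called higher in TRAP and 2 were called higher in unbound. The same rule called 8.11% of all 10524 genes above the floor as higher in TRAP and 18.6% as higher in unbound. Both shares moved with the scaling: 853 genes were called higher in TRAP and 1955 higher in unbound as deposited, against 1723 and 1215 with the array medians subtracted. With so few members, their count is a description and is not read against these shares. The order of the differences, from Ntrk2 through Ntrk3 and Sort1 to Ngfr, was the same under all 4 scalings. The gap between Ngfr and Ntrk2 was 3.13 on the log2 scale as deposited and with the array medians subtracted, 3.06 after quantile normalization and 2.93 after loess. The gap between Ntrk3 and Ntrk2 was 1.00 as deposited and ranged down to 0.92 after loess.

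**Figure D2:**
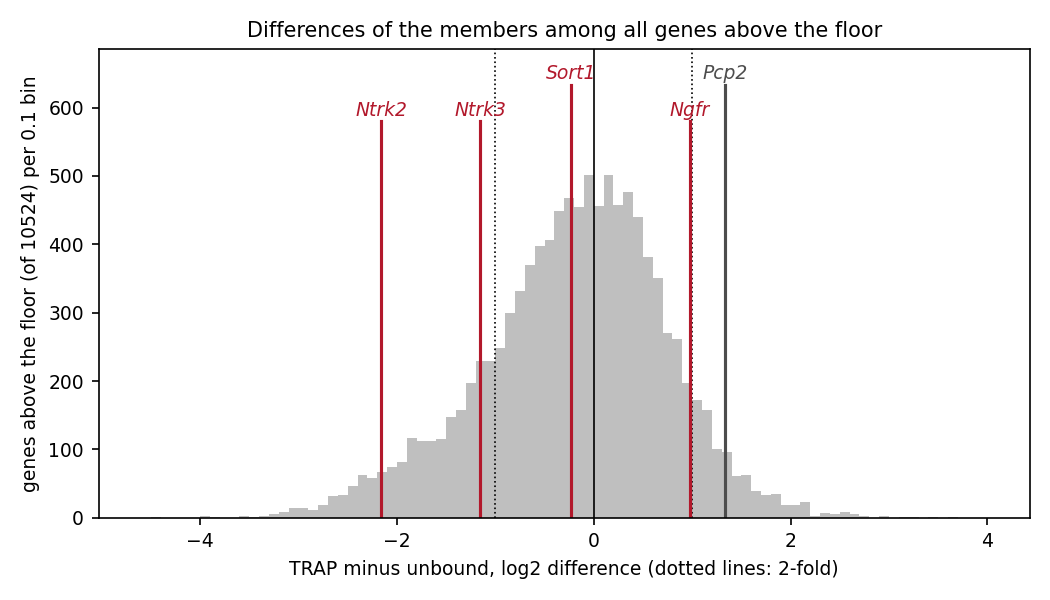
Number of genes per bin (y axis) against the log2 difference TRAP minus unbound (x axis) for the 10524 genes above the floor, with vertical lines at the 4 members above the floor and at Pcp2. Ntrk2 at -2.16 stands in the lower tail, Ntrk3 at -1.15 just past the 2-fold line, Sort1 at -0.23 near the centre, and Ngfr at 0.98 just short of the 2-fold line on the other side.

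**Figure D3:**
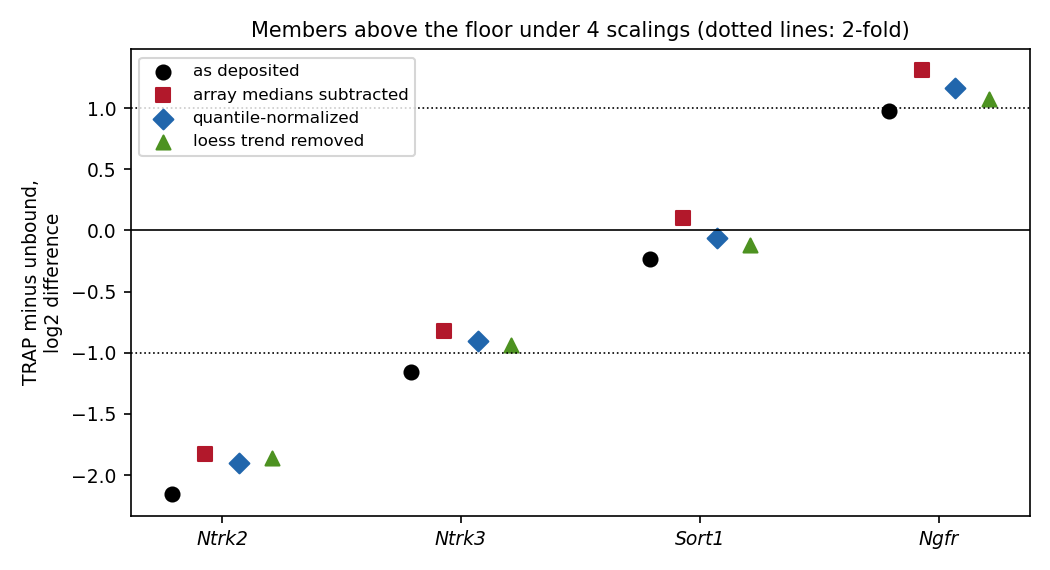
Log2 difference TRAP minus unbound (y axis) of the 4 members above the floor, each as deposited and under 3 other scalings of the arrays. Ntrk2 stays between -2.16 and -1.83 and Ngfr between 0.98 and 1.31, while Ntrk3 and Ngfr cross the dotted 2-fold lines and Sort1 crosses 0.

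Among the relatives of sortilin, Sorl1 and Sorcs2 were higher in TRAP. Sorl1, which encodes the sorting receptor SorLA, read 10.07 in TRAP and 8.90 in unbound, a difference of 1.16 or 2.24-fold. Sorcs2, whose product is known in mice as a partner of p75 for the BDNF precursor, read 8.47 in TRAP and 6.82 in unbound, a difference of 1.64 or 3.13-fold. The unbound value of Sorcs2 lay below the floor, so this gene passed through its TRAP value alone. Its positive sign follows from the floor, and its fold is uncertain. Both passed the 2-fold rule toward TRAP under all 4 scalings, and the Sorl1 difference exceeded that of Sort1 by 1.34 to 1.39. Sorcs1 read 5.75 in TRAP and 6.65 in unbound and Sorcs3 read 5.53 in TRAP and 5.90 in unbound, below the floor on both arrays.

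Genes of precursor cleavage, sorting and release split widely. Of 14 genes on this list 8 were above the floor. The 2-fold rule called 1 of them for TRAP (12.5%, against 8.11% of all genes) and 3 for unbound (37.5%, against 18.6%). Their median difference of -0.19 had no stable sign, being 0.14 with the array medians subtracted and 0.02 after quantile normalization. Cadps2, which promotes the release of BDNF and the Ntf3 product from granule cells in mice, read 8.68 in TRAP and 11.33 in unbound, 6.25-fold higher in unbound. Its paralogue Cadps read 11.06 in TRAP and 10.89 in unbound, a difference of 0.17. Serpini1, which encodes the protease inhibitor neuroserpin, read 6.23 in TRAP and 8.32 in unbound. Plat, named here only once its value was known, encodes the plasminogen activator that neuroserpin inhibits, and it read 6.09 in TRAP and 7.85 in unbound. The TRAP values of Serpini1 and Plat lay below the floor, so their negative sign follows from it and their folds are uncertain. Pcsk6, a proprotein convertase gene, was 2.25-fold higher in TRAP (8.55 against 7.38 in unbound). Furin, another convertase gene and also named afterwards, read 8.44 in TRAP and 8.57 in unbound, and its small negative difference was positive in the 3 alternative scalings.

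Adaptors and cascade genes downstream of Trk receptors lay on both sides of 0. Of the 34 genes above the floor, the 2-fold rule called 1 for TRAP (2.94%, against 8.11% of all genes) and 6 for unbound (17.6%, against 18.6%). Of the 34, 2 passed the floor through the unbound value alone, so their negative sign follows from the floor. The 6 called for unbound include Shc1, which is among these 2. The median difference was -0.21 as deposited, 0.13 with the array medians subtracted, -0.22 after quantile normalization and -0.23 after loess, where all genes had -0.13, 0.25, 0.08 and 0.01 in the same order of settings. Gab1, a docking protein gene that links receptors to PI3 kinase, read 9.25 in TRAP and 10.91 in unbound, 3.16-fold higher in unbound. Kidins220, which encodes a large membrane scaffold phosphorylated on Trk activation, read 8.45 in TRAP and 10.06 in unbound, 3.05-fold higher in unbound. At the other end, Shc4, a gene of the Shc adaptor family, read 9.34 in TRAP and 8.10 in unbound, 2.36-fold higher in TRAP. Map2k1, a MAP kinase kinase gene, had a difference of 1.00 that was just under the 2-fold rule (10.73 in TRAP, 9.73 in unbound).

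Partners of the p75 receptor had shares of calls near those of all genes. Of 20 genes above the floor, 1 was called for TRAP (5%, against 8.11% of all genes) and 4 for unbound (20%, against 18.6%). The 4 include Adam17, which passed the floor through its unbound value alone, so its negative sign follows from the floor. The median difference was -0.39 as deposited and -0.04 with the array medians subtracted. Traf6, an adaptor gene through which p75 reaches NF-kappaB, read 7.09 in TRAP and 9.08 in unbound, 3.97-fold higher in unbound. The TRAP value of Traf6 lay barely above the floor of 7.08, so its fold is uncertain. Lingo1, which encodes a co-receptor of p75 in the Nogo receptor complex, read 7.85 in TRAP and 9.43 in unbound, 2.99-fold higher in unbound. Bad, a gene that promotes cell death, read 8.63 in TRAP and 7.43 in unbound, 2.30-fold higher in TRAP. Psenen, which encodes a subunit of the gamma-secretase that cleaves p75, had a difference of 0.66 (11.58 in TRAP, 10.91 in unbound).

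Genes of Trk and sortilin trafficking had few calls. Of 18 genes above the floor, 0 were called for TRAP (against 8.11% of all genes) and 1 for unbound (5.56%, against 18.6%). With so few genes these counts are a description. The median difference was 0.04 as deposited and 0.37 with the array medians subtracted. The called gene was Hap1, which encodes a huntingtin-associated transport protein, with 7.40 in TRAP and 9.32 in unbound. Vps26a, a retromer subunit gene, had a difference of -0.98, just short of the rule. Slitrk5, whose product is known in mice to interact with TrkB and promote its recycling, had a difference of 0.53, and Gga3, an adaptor gene for sorting receptors, 0.47.

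Regulators of Bdnf transcription lay on both sides. Of 7 genes above the floor, 1 was called in each direction (14.3%, against 8.11% of all genes for TRAP and 18.6% for unbound). The median difference was -0.04 as deposited and 0.29 with the array medians subtracted. Creb1 encodes CREB, the factor known to act through the response element in the printed Bdnf window. It read 8.45 in TRAP and 10.06 in unbound, 3.06-fold higher in unbound. Mef2c, a gene of an activity-regulated transcription factor, read 10.75 in TRAP and 9.70 in unbound, 2.07-fold higher in TRAP, and its relative Mef2d had a difference of 0.81. Crtc1, a CREB coactivator gene, had a difference of -0.36.

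Genes that neurotrophins are known to induce had a median difference of -0.82. The median was -0.36 over all 10 genes with no floor, -0.30 with the floor at the 75th percentile and -0.38 after loess. Of the 6 genes above the floor, 4 (Nr4a1, Egr1, Arc and Fos) passed it through the unbound value alone, so their negative sign follows from the floor and their folds are uncertain. The 4 genes below the floor ran from -0.39 for Vgf, a secreted neuropeptide precursor gene, to 0.55 for Junb, an immediate early gene of the AP-1 family. The 2-fold rule called 0 of the 6 genes above the floor for TRAP (against 8.11% of all genes) and 1 for unbound (16.7%, against 18.6%). The called gene was Nr4a1, an immediate early nuclear receptor gene, with 6.85 in TRAP and 8.48 in unbound. Egr1, an immediate early zinc finger gene, read 6.96 in TRAP and 7.89 in unbound. Homer1 and Dusp6, a postsynaptic scaffold gene and a MAP kinase phosphatase gene, had the smallest differences at -0.28 and -0.33, and Homer1 stood at 0.05 once the array medians were subtracted.

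**Figure D4:**
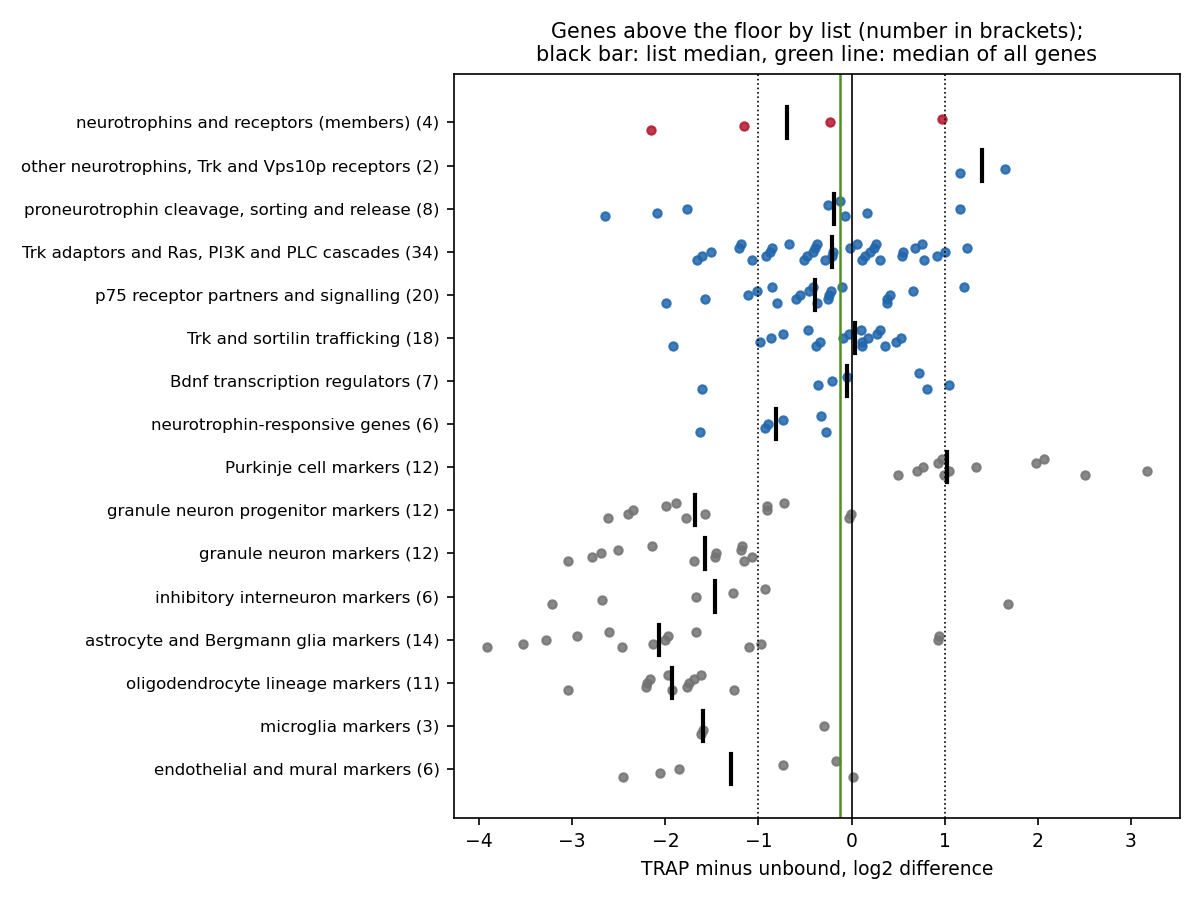
Log2 difference TRAP minus unbound (x axis) for the genes above the floor of each list (rows, number of genes in brackets), with the list median as a black bar and the median of all genes above the floor, -0.13, as a green line. The members run from -2.16 to 0.98, the pathway lists spread over both directions, the Purkinje cell markers lie right of 0, and most markers of other cell types lie left of it.

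For each member above the floor, the genes with the nearest difference were taken from the 174 other genes of the lists that were above the floor. Over 2 arrays this likeness is a single number and many genes share it. Nearest to Ntrk2 were Pdgfra, a marker of oligodendrocyte precursors, at -2.16, and Pax6, a transcription factor gene of the granule lineage, at -2.15. Nearest to Ntrk3 were the granule neuron markers Nhlh2 at -1.16 and Kcnd2 at -1.18. Nearest to Ngfr were the Purkinje cell markers Lhx1 at 0.97 and Lhx5 at 0.99, both LIM homeobox genes. Nearest to Sort1 were Maged1, which encodes a p75-interacting protein, at -0.23, and Rtn4r, the Nogo receptor gene, at -0.24. Among all genes above the floor, 128 others lay within 0.1 of Ntrk2, 434 of Ntrk3, 402 of Ngfr and 940 of Sort1.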

How the data were processed

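Log2 values, 1 for each probe set on each array, were used as deposited. The submitters' processing notes name Affymetrix Power Tools as the authors' software. How background, normalization and probe set summary were handled is not stated in the sources used here. Log2 was taken as the scale from the range of the values (3.15 to 13.65). Probe sets naming 1 gene in the platform annotation (20999 of 22097) were averaged per gene, with symbols updated by Entrez identifier from RefSeq (GRCm38.p6; 20959 matched). A gene was above the floor when at least 1 array exceeded 7.08. No detection calls or scanner signals were used, and the number of arrays limits the precision. No further scaling was applied. Alternatives were subtraction of array medians, quantile normalization, a loess trend (span 0.3; statsmodels 0.14.6), other floors, other fold rules and the brightest probe set per gene. Subtracting the array medians moved each difference by 0.33. The median difference of all genes above their floor was -0.13 as deposited, 0.25 with medians subtracted, 0.08 after quantile normalization and 0.01 after loess. Scripts were tested on simulated data. Members and lists (16 lists, 235 genes, 209 with a value) were chosen with earlier results of these data known. Named were all members, their relatives with a value, Pcp2, Rpl10a and the 2 genes nearest to each member. The 2 highest and 2 lowest genes above the floor were named for each pathway list and for astrocytes and Bergmann glia. This was not done for the other marker lists. Other names are given as chosen afterwards or as defining markers. Arc, Fos, Vgf and Junb were also chosen afterwards.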

Additional observations from a re-analysis of the deposited data

How the results depend on the processing

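With 1 array per fraction, every value describes 2 arrays, and low signals limit Bdnf, Ntf5 and the TRAP value of Ntrk2 most. No paired analysis was possible because each fraction has 1 array. With the array medians subtracted the differences were 0.44 for Bdnf, -1.83 for Ntrk2, -0.82 for Ntrk3, 1.31 for Ngfr and 0.10 for Sort1. After quantile normalization they were -1.90 for Ntrk2, -0.91 for Ntrk3, 1.17 for Ngfr and -0.064 for Sort1, and after loess -1.86 for Ntrk2, -0.94 for Ntrk3 and -0.12 for Sort1; Bdnf, below the floor, could not be given a loess value, and Ntf3 had none under any setting. Under each of these 3 scalings 1 member was at least 2-fold higher in TRAP and 1 higher in unbound. The 1.5-fold rule called 1 member higher in TRAP and 2 higher in unbound. The floor at the 75th percentile and the 4-fold rule each called 0 higher in TRAP and 1 higher in unbound. With so few members these counts are a description. Over all genes, calls higher in TRAP numbered 1723 with medians subtracted, 1262 after quantile normalization and 1239 after loess. They numbered 597 with the floor at the 75th percentile. Of the 10524 genes above the main floor, 1983 were called higher in TRAP at 1.5-fold and 78 at 4-fold. Calls higher in unbound numbered 1215 with medians subtracted, 1439 after quantile normalization and 1431 after loess. They numbered 986 with the floor at the 75th percentile. Of the same 10524 genes, 3252 were called higher in unbound at 1.5-fold and 457 at 4-fold. Of 95 pathway genes above the floor, 16 changed sign with medians subtracted, 8 after quantile normalization and 9 after loess, none of them at least 2-fold apart as deposited. The cause was not tested beyond the construction of each setting.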

Other observations

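Subunits of shared complexes, picked out after their values were seen, lay on both sides of 0. Among gamma-secretase subunits, whose complex cleaves the p75 stub after ectodomain shedding, Ncstn had a difference of -0.85 and Aph1a of -0.46, whereas Psenen had 0.66. Adam17, the gene of a protease that sheds the p75 ectodomain, read 6.09 in TRAP and 7.21 in unbound. Its TRAP value lay below the floor, so its negative sign follows from the floor. Among retromer subunits, which return sortilin from endosomes, Vps26a and Vps35 had differences of -0.98 and -0.87, whereas Vps29 had 0.11 (-0.004 after loess).

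The Shc adaptor genes, also picked out afterwards, lay on both sides of 0. Shc1 read 6.26 in TRAP, below the floor, and 7.33 in unbound, so its negative sign follows from the floor. Shc3, the neuronal member, read 10.26 in TRAP and 10.68 in unbound. Shc2 read 8.44 in TRAP and 7.53 in unbound, next to Shc4 at 9.34 in TRAP and 8.10 in unbound. Each value rests on 1 array per fraction.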
